A study of Mus musculus with 12 samples.

Results

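The genes described here are the mouse zinc finger genes whose symbols run from Zfp800 to Zfp999. Of 96 such rows in the count table, 74 had at least 10 counts in 3 or more of the 12 libraries and are the members of the set. The table holds 38561 rows in all, of which 15470 passed the same count rule. The number in a Zfp symbol is a cataloguing number, so the set is not a pathway. It holds 73 protein-coding genes and 1 transcribed pseudogene, Zfp939, and 5 members carry a letter after the number (Zfp804b, Zfp874a, Zfp874b, Zfp955a and Zfp955b).

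RNA was sequenced from pancreatic islets hand-picked from normoglycemic male mice aged 11 weeks, with 3 mice in each of 4 groups. B10 mice were on the C57BL/10SnSg background and NOD mice, a strain prone to autoimmune diabetes, on the NOD/LtJ background. Both backgrounds carried the k haplotype of the major histocompatibility complex (BR-H2k) and a Rag-/- genotype (Ragtm1Mom, of 129S7 origin), which leaves a mouse without T and B cells. The groups B10_insHEL and NOD_insHEL also carried the transgene Tg(ILK3mHEL)3Ccg, written insHEL in the labels, which is known to place hen egg lysozyme under an insulin promoter. All 4 groups therefore share the MHC k and Rag-/- genotypes, and every transgenic mouse carries the same transgene line. Transcription was blocked with α-amanitin and actinomycin D while the pancreata were digested.

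Libraries held 2212062 to 21138456 counts, with the shallowest in NOD_insHEL (replicate 3), and the members together took 998.5 to 1219 CPM of each, where CPM gives a count relative to its own library. The beta cell markers Ins1 and Ins2 made up 15.8 to 21.6% of the counts in the 6 libraries of B10 background and 22.4 to 25.6% in the 6 of NOD background, and the part of this in the strain differences was not tested. Rag2, Cd3e and Ms4a1 had 0 counts in all 12, Rag1 had 13 to 141, and the B-cell marker Cd79a had 4 to 40. The summed level of 10 acinar enzyme markers was 2842 to 3661 CPM in B10, 27.3 to 1949 in B10_insHEL, 111 to 202 in NOD and 31.9 to 64.7 in NOD_insHEL, with B10_insHEL replicate 2 the highest of its group. The summed level of 4 endothelial markers was 778 to 1160 CPM in NOD and 512 to 703 in the other groups, and that of 3 duct markers was 12.2 to 26.7 CPM in NOD_insHEL and 83.7 to 159 in the others. The sample numbers in the descriptions follow a separate, higher series in the B10 group, so whatever that series stands for cannot be told apart from the B10 group. In whole islets, fewer cells of a type and less RNA per cell cannot be told apart.

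Most mouse genes of this kind encode C2H2 zinc finger proteins, in which each finger is a short loop held by 2 cysteines and 2 histidines around a zinc ion and reads a few bases of DNA. A large family of them also carries a KRAB domain, which binds the corepressor Trim28 (KAP1). Trim28 brings in the histone methyltransferase Setdb1, and the complex silences endogenous retroviruses and other transposons. KRAB zinc finger genes arose by repeated local duplication, so neighbours on a chromosome are close in sequence and can differ in copy number between mouse strains. In the reference coding sequences, 69 of the 73 coding members held at least 1 match to the C2H2 finger pattern, with a median of 11 fingers and a maximum of 22.

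The chromosome 4 genes hold the 2 largest strain differences described here. The stretches below are 84 coding bases each, read 5′ to 3′ from the GENCODE vM21 transcripts on GRCm38. That of Zfp990 is its first finger and linker. For every other gene it is the in-frame stretch with the fewest differences from the Zfp990 finger. These stretches were picked for likeness, so they do not measure how alike neighbouring fingers are in general. Each lies in 1 coding exon. Capitals mark bases that differ from the Zfp990 finger.
Zfp990 (chr4:145537157-145537240, plus strand): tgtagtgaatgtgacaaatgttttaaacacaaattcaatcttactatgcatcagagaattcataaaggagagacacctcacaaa
Zfp987 (chr4:146124723-146124806, plus strand): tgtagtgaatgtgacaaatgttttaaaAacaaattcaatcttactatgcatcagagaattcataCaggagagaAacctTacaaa
Zfp984 (chr4:147755508-147755591, minus strand): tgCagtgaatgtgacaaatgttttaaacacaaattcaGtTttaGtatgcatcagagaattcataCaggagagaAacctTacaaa
Zfp979 (chr4:147613393-147613476, minus strand): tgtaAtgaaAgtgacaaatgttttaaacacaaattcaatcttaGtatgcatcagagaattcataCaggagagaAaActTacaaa
Zfp991 (chr4:147178891-147178974, plus strand): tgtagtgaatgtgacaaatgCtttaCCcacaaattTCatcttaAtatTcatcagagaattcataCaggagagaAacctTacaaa
Zfp985 (chr4:147583478-147583561, plus strand): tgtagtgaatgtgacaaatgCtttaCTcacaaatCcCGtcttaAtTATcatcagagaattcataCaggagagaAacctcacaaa
Zfp933 (chr4:147826070-147826153, minus strand): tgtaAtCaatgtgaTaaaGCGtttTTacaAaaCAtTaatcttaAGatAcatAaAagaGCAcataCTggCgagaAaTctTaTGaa

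The Zfp987 stretch had 4 differences from that of Zfp990 (95.2% identity), and Zfp986 has the same letters as Zfp987. Zfp984 and Zfp979 had 7 differences each (91.7%), Zfp991 had 10 (88.1%) and Zfp985 had 12 (85.7%). In the Zfp979 stretch a serine codon takes the place of a zinc-binding cysteine, so it does not match the finger pattern. Zfp933, at the edge of the same group of genes, had 28 (66.7%). The next lines show near copies outside chromosome 4, with capitals marking differences from the first of each pair. The second of each pair was picked in the same way, as the best match. Zfp874a and Zfp874b had 4 differences (95.2% identity), and the stretches of Zfp955a and Zfp955b were identical.
Zfp874a (chr13:67443066-67443149, minus strand): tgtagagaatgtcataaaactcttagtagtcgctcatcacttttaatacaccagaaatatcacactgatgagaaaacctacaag
Zfp874b (chr13:67474683-67474766, minus strand): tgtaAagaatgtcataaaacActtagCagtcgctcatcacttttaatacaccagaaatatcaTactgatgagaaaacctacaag
Zfp955a (chr17:33242296-33242379, minus strand): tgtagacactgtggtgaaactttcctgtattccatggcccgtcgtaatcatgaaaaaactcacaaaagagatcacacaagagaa
Zfp955b (chr17:33302336-33302419, plus strand): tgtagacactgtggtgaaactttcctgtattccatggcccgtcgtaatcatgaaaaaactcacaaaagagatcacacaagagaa

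The first question was how the 6 libraries of NOD background (NOD and NOD_insHEL) differed from the 6 of B10 background, averaged over the transgene. Here 18 of 74 members passed the test (24.3%), 10 higher and 8 lower in NOD, against 33.3% of the 15352 genes tested (15.7% higher and 17.6% lower). The test was edgeR's quasi-likelihood test with Benjamini-Hochberg adjustment over all 15352 genes, at an adjusted p of 0.05. Every adjusted p given here comes from it, except where a left-out library or the acinar covariate is named. Those come from the same test in that fit, adjusted over the genes of that fit. Differences are log2, NOD minus B10. The median difference was 0.01 over the members and 0.01 over all genes, and the median absolute difference was 0.24 in both. An absolute log2 difference of at least 1 was seen for 6 members (8.11%), against 7.66% of all genes and 11 of 278 other Zfp numbers (3.96%). So the share of members called was below the background, while large differences fell on a few named genes: Zfp990, Zfp985 and Zfp970 higher, and Zfp991, Zfp951 and Zfp874a lower.

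In 8 members the 6 NOD libraries did not overlap the 6 B10 libraries, against 11.3% of all genes tested. Zfp990, Zfp985, Zfp970 and Zfp945 lay higher in NOD, against 4.92% of all genes, and Zfp991, Zfp874a, Zfp932 and Zfp950 lay lower, against 6.4%. Mice of 1 group are the replicates, so each p-value sets a difference against the spread between mice. That spread was estimated over all 4 groups and partly shared across genes.

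**Figure D1:**
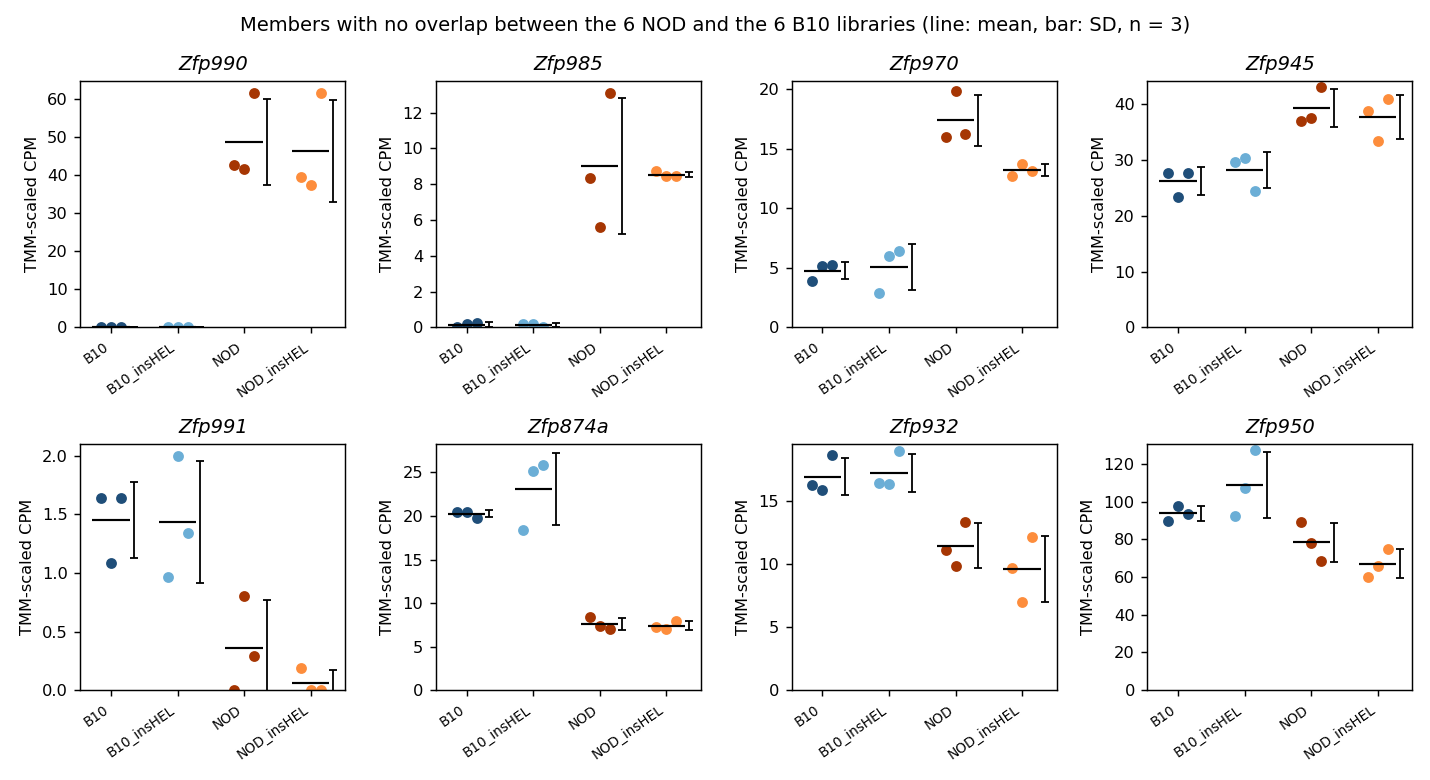
Level of the 8 members whose 6 NOD and 6 B10 libraries did not overlap, in CPM scaled by TMM (linear axis from 0), with 1 point per mouse, the group mean as a line and the SD as a bar (n = 3). Zfp990 and Zfp985 are near 0 in all B10 and B10_insHEL mice and above 5 CPM in all NOD and NOD_insHEL mice.

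Members on one chromosome whose neighbouring start sites lay within 1 Mb of each other, at least 3 in number, were taken as a cluster. This gave 8 clusters with 43 members, and 31 members lay outside them. The clusters differed in how widely their members were spread between the strains. On chromosome 4 the SD of the log2 differences over members was 3.78, which rests mainly on Zfp990 and Zfp985, and on chromosome 2 it was 1.10, which rests on Zfp970 alone of 3. Zfp990 and Zfp985 met the count rule only through the 6 NOD-background libraries, and Zfp991 mainly through B10-background ones. Their place in the set thus already depends on the side where they are high, and the chromosome 4 spread is no independent support for a strain difference. In the other 6 clusters it was 0.20 (chromosome 13) to 0.44 (the smaller of 2 on chromosome 17), with 0.23 in the larger chromosome 17 cluster, and over the 31 members outside clusters it was 0.50. The median absolute difference, which depends less on single genes, was 0.77 on chromosome 4. It was 0.41 and 0.24 in the smaller and larger chromosome 17 clusters, 0.35 on chromosome 2 and 0.33 on chromosome 7. On chromosomes 8, 13 and 9 it was 0.18, 0.16 and 0.15, and outside clusters 0.18. Members of a cluster share position and sequence and are not independent, so these SDs are descriptions and no test was made between clusters.

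**Figure D2:**
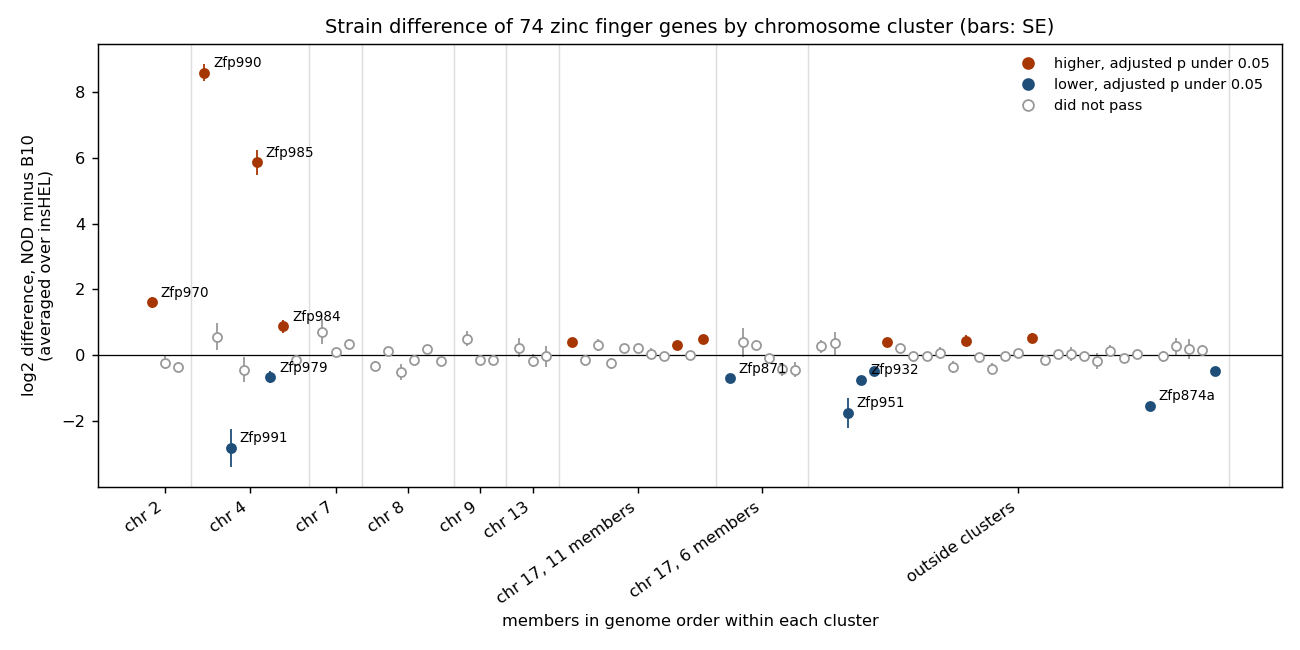
Log2 difference, NOD minus B10, averaged over the transgene, for each of the 74 members (vertical axis; bars are the SE), in genome order within the 8 clusters and then the members outside clusters. Filled points passed an adjusted p of 0.05. The chromosome 4 members run from -2.81 to 8.58, and those of the larger chromosome 17 cluster from -0.24 to 0.49.

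The chromosome 4 cluster ran from Zfp990 to Zfp933 (145510759 to 147848366, GRCm38) and held 8 members. In it 3 were higher, 2 lower and 3 not called, where 33.3% of all genes tested were called. Zfp990 (ENSMUSG00000078503, 145510759 to 145539188), which has 13 fingers, had 0.117, 0.135 and 0 CPM in the 3 B10 mice and 0.215, 0.087 and 0.103 in the B10_insHEL mice. It had 42.5, 41.6 and 61.5 CPM in NOD and 39.5, 37.5 and 61.5 in NOD_insHEL. The gene was thus at 0 to 3 counts in every B10-background library and at 131 to 573 in every NOD-background library. The averaged log2 difference was 8.58 (SE 0.26, adjusted p = 8.86e-15), the largest of the members. Fitted values of genes this low on one side depend on the small prior count that edgeR adds.

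Zfp985 (ENSMUSG00000065999, 147553277 to 147585198), with 10 fingers, had 0, 0.180 and 0.273 CPM in B10 and 0.215, 0.174 and 0 in B10_insHEL. In NOD it had 8.34, 5.60 and 13.1 CPM and in NOD_insHEL 8.72, 8.44 and 8.45. Every NOD-background library stood above every B10-background one, at 5.86 on the log2 scale (SE 0.38, adjusted p = 2.66e-10). A few genes of the same region that failed the count rule had counts on one side. Zfp988 had 5, 7 and 4 counts in NOD, 6, 2 and 0 in NOD_insHEL, and 1 count in all in the 6 B10-background libraries. Zfp981 had 5, 5 and 3 counts in NOD, 5, 1 and 0 in NOD_insHEL, and 0 in all 6 B10-background libraries, and no fold is given for counts this low.

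Zfp984 had 5.03, 3.97 and 4.57 CPM in the B10 mice, 3.87, 3.57 and 2.48 in the B10_insHEL mice, 4.54, 5.60 and 9.50 in the NOD mice and 8.05, 6.99 and 9.86 in the NOD_insHEL mice. The transgenic groups did not overlap, and the groups without transgene did. It was higher by 0.89 on average (SE 0.20, adjusted p = 0.00158), by 1.28 in transgenic islets (adjusted p = 0.00544) and by 0.50 without the transgene (adjusted p = 0.164). The difference between those 2 values, the interaction, was 0.78 (SE 0.39, adjusted p = 0.436).

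Zfp991 (ENSMUSG00000067916, 147132038 to 147180579) went the other way in the same cluster. It had 1.64, 1.08 and 1.64 CPM in the B10 mice, 0.967, 2.00 and 1.34 in the B10_insHEL mice, 0, 0.799 and 0.288 in the NOD mice and 0.192, 0 and 0 in the NOD_insHEL mice. All 6 NOD-background libraries were below all 6 of B10 background. The averaged log2 difference was -2.81 (SE 0.58, adjusted p = 8.25e-04). In the transgenic groups this rests on 45 counts against 2, a ratio of 14.9 after scaling (95% exact interval 3.88 to 126, covering counting error only).

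Zfp979 had 15.8, 17.3 and 18.5 CPM in the B10 mice, 24.4, 19.9 and 26.8 in the B10_insHEL mice, 7.35, 10.2 and 19.3 in the NOD mice and 12.4, 13.3 and 16.9 in the NOD_insHEL mice. NOD replicate 3 and NOD_insHEL replicate 3 lay among the B10-background libraries. It was lower by an averaged log2 of -0.66 (SE 0.18, adjusted p = 0.00870). The other 3 members of the cluster did not pass: Zfp992 at 0.57 (SE 0.42, adjusted p = 0.315), Zfp982 at -0.44 (SE 0.37, adjusted p = 0.387) and Zfp933 at -0.15 (SE 0.11, adjusted p = 0.346). Zfp933, whose best match was the least like the Zfp990 finger among those shown, had 20.3 ± 1.62 CPM in B10 and 19.5 ± 0.258 in NOD (SD, n = 3).

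The chromosome 2 cluster (177464733 to 178078476) held Zfp970, Zfp971 and Zfp931. Zfp970 (ENSMUSG00000078866) had 3.92, 5.18 and 5.25 CPM in the B10 mice, 2.90, 6.001 and 6.40 in the B10_insHEL mice, 16.02, 19.8 and 16.3 in the NOD mice and 12.7, 13.7 and 13.1 in the NOD_insHEL mice. No library of one background reached the other, and it was higher by 1.61 (SE 0.16, adjusted p = 1.84e-07). Its neighbours lay on the other side of 0 and did not pass in this comparison, Zfp971 at -0.22 (SE 0.18, adjusted p = 0.380) and Zfp931 at -0.35 (SE 0.16, adjusted p = 0.0933). Zfp931 was lower without the transgene, by -0.61 (adjusted p = 0.0388), a call that was lost with the mean acinar marker level as a covariate and without B10 replicate 1, 2 or 3 or NOD replicate 2 or 3.

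The larger chromosome 17 cluster ran from Zfp948 to Zfp945 (21567008 to 22867134) and held 11 members. Of these 3 were higher and none lower, against 15.7% and 17.6% of all genes, and the median log2 difference was 0.23. Zfp945 (ENSMUSG00000059142), with 18 fingers, had 27.6, 23.3 and 27.7 CPM in the B10 mice, 29.7, 30.4 and 24.4 in the B10_insHEL mice, 36.9, 37.5 and 43.1 in the NOD mice and 38.6, 33.2 and 40.8 in the NOD_insHEL mice. All NOD-background libraries were above all of B10 background, a difference of 0.49 (SE 0.09, adjusted p = 3.84e-04). It was 0.58 without the transgene (adjusted p = 0.00212) and 0.40 with it, where it did not pass (adjusted p = 0.0562). Zfp948 was higher by 0.41 (SE 0.10, adjusted p = 0.00369) and Zfp944 by 0.30 (SE 0.11, adjusted p = 0.0367), both with overlapping libraries. The call of Zfp944 was lost when any one of 10 of the 12 libraries was left out, and held only without B10_insHEL replicate 2 or NOD_insHEL replicate 3. The other 8 ran from -0.24 (Zfp995) to 0.31 (Zfp820), with Zfp942 at 0.24 (adjusted p = 0.0600) and Zfp943 at 0.23 (adjusted p = 0.0613) nearest the threshold. Zfp983 stood at -0.13, Zfp994 at -0.01, Zfp946 at 0.02 and Zfp947 at 0.05.

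The smaller chromosome 17 cluster (32765496 to 33307241) held Zfp871, Zfp811, Zfp870, Zfp952, Zfp955a and Zfp955b. It lies 0.706 to 1.23 Mb before H2-K1, the class I gene at one end of the MHC, for which both backgrounds are labelled k. The larger cluster lies 11.1 to 12.4 Mb before it. Zfp871 was the one member of the smaller cluster that passed in the averaged comparison. It had 58.9, 78.8 and 69.2 CPM in the B10 mice, 43.2, 64.4 and 38.4 in the B10_insHEL mice, 45.0, 36.3 and 32.8 in the NOD mice and 36.3, 30.9 and 33.8 in the NOD_insHEL mice. The B10-background libraries with 58.9 CPM or more were the 3 B10 mice and B10_insHEL replicate 2, the 4 libraries with the highest acinar marker sums. The averaged log2 difference was -0.69 (SE 0.12, adjusted p = 3.10e-04), and -0.37 (adjusted p = 0.0865) with the mean acinar marker level as a covariate. That covariate largely follows the groups, so acinar RNA and strain cannot be told apart in this change.

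Zfp955a and Zfp955b, whose printed fingers are identical, stood at -0.43 (SE 0.21, adjusted p = 0.116) and -0.44 (SE 0.23, adjusted p = 0.140). Zfp870 was higher in transgenic islets, with 10.4, 10.6 and 6.57 CPM in NOD_insHEL against 6.02, 5.65 and 6.40 in B10_insHEL. That difference was 0.68 (adjusted p = 0.0470), and without the transgene it was -0.02 (adjusted p = 0.956). The interaction for Zfp870 was 0.69 (SE 0.30, adjusted p = 0.363). Zfp952 stood at -0.07 and Zfp811, at the edge of the count rule, at 0.39 (SE 0.43, adjusted p = 0.517).

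The chromosome 8 cluster (69209038 to 69791178) held 6 members and none passed in the averaged comparison, where they ran from -0.51 to 0.18. Without the transgene 3 passed, against 28.4% of all genes: Zfp964 at -1.25 (adjusted p = 0.00808), Zfp869 at -0.35 (adjusted p = 0.0326) and Zfp963 at 0.52 (adjusted p = 0.0467). All 3 calls were lost with the acinar covariate, that of Zfp869 also without B10 replicate 1 or 2 or NOD replicate 2 or 3. That of Zfp963 was lost under DESeq2 and without any one of 8 libraries. Zfp964 had 2.81, 2.84 and 3.14 CPM in the B10 mice, 1.83, 1.74 and 1.65 in the B10_insHEL mice, 1.32, 1.09 and 1.30 in the NOD mice and 1.63, 2.77 and 1.41 in the NOD_insHEL mice. The B10 mice were thus above every other library, B10_insHEL among them, and the interaction was 1.47 (SE 0.49, adjusted p = 0.262). Zfp930, Zfp868 and Zfp866 did not pass in any strain comparison.

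The 3-member clusters on chromosomes 13, 7 and 9 held no call in any strain comparison. On chromosome 9, Zfp809 is known to silence murine leukemia viruses by binding their primer binding site. It had 23.3, 24.4 and 26.2 CPM in the B10 mice, 15.4, 20.6 and 21.11 in the B10_insHEL mice, 20.5, 18.9 and 18.0 in the NOD mice and 19.4, 21.2 and 20.7 in the NOD_insHEL mice. The B10 mice without transgene were the highest, and it did not pass in the averaged comparison, at -0.13 (SE 0.10, adjusted p = 0.338). Its neighbours Zfp872 and Zfp810 stood at 0.51 (SE 0.23, adjusted p = 0.0974) and -0.15 (SE 0.08, adjusted p = 0.162).

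Outside the clusters, 3 of 31 members were higher and 5 lower, against 15.7% and 17.6% of all genes. Zfp874a (ENSMUSG00000069206, chromosome 13) had 20.5, 20.5 and 19.8 CPM in the B10 mice, 18.4, 25.1 and 25.9 in the B10_insHEL mice, 8.42, 7.34 and 7.06 in the NOD mice and 7.29, 6.99 and 7.98 in the NOD_insHEL mice. Every NOD-background mouse was below every B10-background mouse, by an averaged log2 of -1.54 (SE 0.12, adjusted p = 4.95e-09). Its near copy Zfp874b, whose finger is shown above, did not pass. Zfp874b had 11.8 ± 0.948 CPM in the B10 mice, 12.3 ± 5.51 in the B10_insHEL mice, 12.1 ± 0.964 in the NOD mice and 12.2 ± 2.03 in the NOD_insHEL mice (SD, n = 3), a difference of -0.02 (SE 0.17, adjusted p = 0.936).

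Zfp932 (ENSMUSG00000066613, chromosome 5) is known, with its paralog Gm15446, as a repressor of endogenous retroviruses in mouse embryonic stem cells. It had 16.3, 15.9 and 18.7 CPM in the B10 mice, 16.4, 16.4 and 19.0 in the B10_insHEL mice, 11.1, 9.88 and 13.4 in the NOD mice and 9.68, 6.99 and 12.2 in the NOD_insHEL mice. All NOD-background values were lower, by an averaged log2 of -0.75 (SE 0.13, adjusted p = 1.83e-04). Gm15446, which is no member by its name, had 11.6 ± 2.02 CPM in B10 and 9.91 ± 0.479 in NOD (SD, n = 3) and did not pass, at -0.19 (SE 0.14, adjusted p = 0.334).

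Zfp950 (ENSMUSG00000074733, chromosome 19) had 89.9, 97.8 and 93.4 CPM in the B10 mice, 92.3, 107 and 127 in the B10_insHEL mice, 88.9, 77.8 and 68.5 in the NOD mice and 60.1, 66.0 and 75.1 in the NOD_insHEL mice. The gap between the lowest B10-background and the highest NOD-background library was about 1 CPM, and the difference was -0.49 (SE 0.09, adjusted p = 3.10e-04). It was -0.72 in transgenic islets (adjusted p = 6.38e-04) and -0.25 without the transgene, where it did not pass (adjusted p = 0.133). The interaction for Zfp950 was -0.46 (SE 0.18, adjusted p = 0.312). Zfp951, on chromosome 5, had 2.22, 2.12 and 2.04 CPM in the B10 mice, 0.537, 3.22 and 2.27 in the B10_insHEL mice, 0.413, 0.799 and 0.432 in the NOD mice and 0.0959, 1.45 and 0.470 in the NOD_insHEL mice. B10_insHEL replicate 1 lay within the NOD range. Zfp951 was lower by -1.74 (SE 0.45, adjusted p = 0.00608), and its call was lost with the acinar covariate, at -1.22 (adjusted p = 0.176).

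Zfp800 (chromosome 6), whose human counterpart ZNF800 is known as a repressor of enteroendocrine differentiation in gut organoids, had 41.9, 42.3 and 54.5 CPM in B10 and 27.9, 45.7 and 32.5 in B10_insHEL. It had 28.4, 27.9 and 23.2 CPM in NOD and 30.0, 35.6 and 30.5 in NOD_insHEL. The 4 libraries above 40 CPM were again the 4 with the highest acinar marker sums. It was lower by -0.47 (SE 0.12, adjusted p = 0.00397), by -0.79 without the transgene (adjusted p = 0.00102) and by -0.14 with it (adjusted p = 0.655). With the acinar covariate the averaged difference was -0.19 (adjusted p = 0.402).

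The remaining calls outside the clusters were Zfp821 at 0.54 (SE 0.13, adjusted p = 0.00406), Zfp956 at 0.42 (SE 0.12, adjusted p = 0.0108) and Zfp941 at 0.44 (SE 0.16, adjusted p = 0.0460), all higher in NOD. These 3, with Zfp951, fall outside the rule for named genes and were chosen after their values were seen. With the acinar covariate none of the 3 passed, though Zfp821 stood at 0.51 (adjusted p = 0.0752) and Zfp941 at 0.54 (adjusted p = 0.126), close to their values without it, and Zfp956 at 0.28 (adjusted p = 0.264). Zfp941 also failed without any one of 8 libraries. Zfp827, whose human counterpart recruits a chromatin remodelling complex to telomeres, was at 0.06 (SE 0.08, adjusted p = 0.633). Zfp830, linked to pre-mRNA splicing, was at -0.09 (SE 0.10, adjusted p = 0.524). Zfp804a, with 32 counts over all 12 libraries, and Zfp819, with 1, fell below the count rule and were not tested.

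The strain difference was also taken separately in libraries that share no mouse. Of the 74 members, 11 passed in NOD_insHEL against B10_insHEL (14.9%, 7 higher and 4 lower), against 12.1% of all genes (5.55% higher and 6.5% lower). In NOD against B10, 18 passed (8 higher and 10 lower), against 28.4% of all genes (13.5% higher and 14.9% lower). Both comparisons called Zfp990, Zfp985 and Zfp970 higher and Zfp991, Zfp874a and Zfp932 lower. These 6 are 54.5% of the first list and 33.3% of the second, against 72.9% and 31.0% over all genes. No member was called in opposite directions. Of the 6, Zfp991 lost its call without the transgene when B10 replicate 1 or 3 or NOD replicate 1 or 3 was left out, Zfp932 when B10 replicate 3 or NOD replicate 2 was, and both with the acinar covariate. The sign was the same for 49 of 74 members (66.2%), against 70.9% of all genes.

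**Figure D3:**
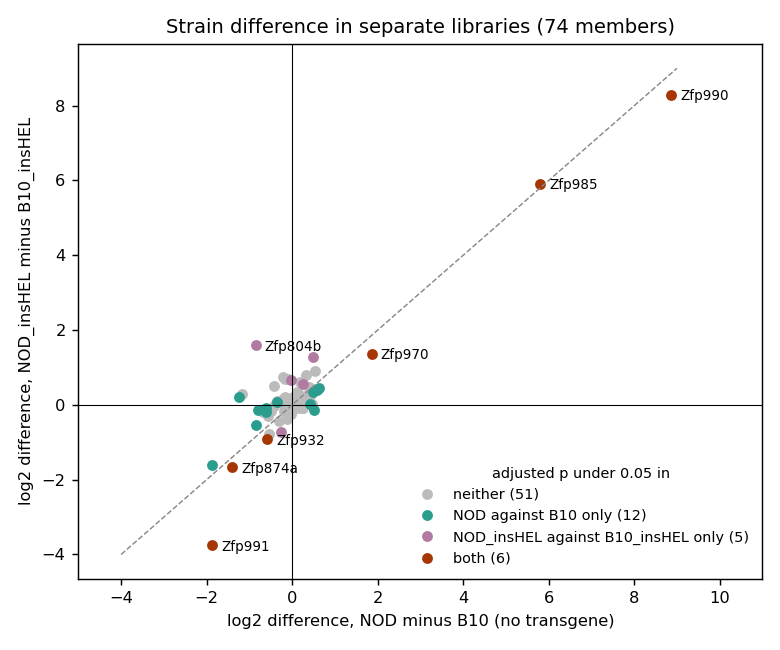
Log2 difference of each of the 74 members without the transgene (NOD minus B10, horizontal) and with it (NOD_insHEL minus B10_insHEL, vertical), with the dashed line marking equal values. Colours give the calls at an adjusted p of 0.05, and the 6 members called in both include Zfp990 at 8.87 and 8.29.

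Zfp990 stood at 8.87 without the transgene and 8.29 with it, Zfp985 at 5.79 and 5.92, Zfp970 at 1.86 and 1.36, and Zfp874a at -1.41 and -1.66. Zfp991 stood at -1.86 and -3.75, but its interaction was -1.89 with an SE of 1.30 (adjusted p = 0.581). Zfp804b, a gene with no match to the finger pattern, had 1.25, 1.45 and 2.35 CPM in NOD_insHEL and 0.430, 0.522 and 0.516 in B10_insHEL. It had 0.413, 0.799 and 0.576 CPM in NOD and 0.878, 1.26 and 1.16 in B10, so both pairs of groups were apart in opposite directions. The differences were 1.60 with the transgene (adjusted p = 0.0467) and -0.86 without it (adjusted p = 0.162), with an interaction of 2.45 (SE 0.68, adjusted p = 0.181). Leaving out any one library other than NOD replicate 1 ended the Zfp804b call, and leaving out any other than NOD replicate 2 or NOD_insHEL replicate 3 ended that of Zfp870. Zfp991 lost its transgenic call without NOD_insHEL replicate 2, and Zfp948, called there at 0.56 (adjusted p = 0.0142), lost its call without that library or B10_insHEL replicate 3. Without the transgene, 10 members passed when B10 replicate 3 or NOD replicate 3 was left out and 11 when B10 replicate 1, B10 replicate 2 or NOD replicate 2 was, and 5 passed with the acinar covariate. Over all genes the share called also fell, from 28.4% to 18.4 to 22.9% without one of those 5 libraries and to 9.22% with the covariate. Zfp865 at 0.42 (adjusted p = 0.0386) and Zfp882 at -0.62 (adjusted p = 0.0456) were among the calls lost without single libraries.

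The insHEL transgene was compared within each background. No member passed in B10_insHEL against B10, against 6.85% of all genes, and none in NOD_insHEL against NOD, against 7.06%. At an unadjusted p under 0.05 edgeR gave 9 members in B10 (12.2%) and 7 in NOD (9.46%), against 21.8% and 23.5% of all genes. DESeq2 called 0 in both, against 8.64% of all genes in B10 and 9.15% in NOD. The lowest adjusted p in B10 was that of Zfp871, at -0.50 (SE 0.17, adjusted p = 0.0789). Without B10_insHEL replicate 2, the library with the high acinar sum, edgeR called Zfp871 at -0.76 (adjusted p = 0.00201) and Zfp800 at -0.61 (adjusted p = 0.0109). In NOD the lowest was that of Zfp870, at 0.65 (SE 0.22, adjusted p = 0.0742). Without NOD_insHEL replicate 3, Zfp870 at 0.77 (adjusted p = 0.0317) and Zfp865 at -0.52 (adjusted p = 0.0431) passed.

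For the interaction, the transgene difference in NOD minus that in B10, edgeR called 0 members, against 0.0586% of all genes. DESeq2 also called 0, against 0.541% of all genes. At an unadjusted p under 0.05 edgeR gave 11 members (14.9%, against 12.2% of all genes). Zfp800 passed without B10_insHEL replicate 2, at 0.88 (adjusted p = 0.0354). The part of acinar RNA in these values was not tested beyond the covariate.

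Reads from near copies can be split, dropped or given to the wrong gene when they are counted, and how multiply mapped reads were handled is not given in the sources used here. As a measure of this, the share of each gene's 50-base transcript words that also occur, letter for letter, in transcripts of another gene at a separate locus was taken from the GENCODE vM21 transcripts. The median share over the 74 members was 2.80% (range 0 to 82.7%). It was 10% or more in 29 members, 50% or more in 5 and 0 in 8. By cluster the median was 49.7% on chromosome 2, 28.1% on chromosome 4, 28.2% on chromosome 13, 20.4% on chromosome 7, 5.80% and 1.71% in the larger and smaller chromosome 17 clusters, 2.70% on chromosome 8 and 0 on chromosome 9. Over the 31 members outside clusters it was 1.02%.

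Among the members with the widest strain differences the share varied. Zfp990 shared 29.1% of its words, most with Zfp987 (13.1%), which had 0 counts in all 12 libraries. Zfp985 shared 15.9%, most with Zfp988 (6.60%), which had 25 counts in all. It shared nearly as much with Gm13212 (6.50%, 41 counts in all) and Gm8935 (6.10%, 157 counts in all). Gm8935 was itself higher in NOD, at 2.87 (SE 0.40, adjusted p = 1.27e-05), and whether reads passed between it and Zfp985 was not tested. For Zfp990 and Zfp985 most words are thus their own in this annotation. Zfp991 shared 82.2%, most with Znf41-ps (67.1%, 64 counts in all), and 58.4% with the member Zfp992. Zfp970 shared 49.7%, most with Gm14288 (27.8%), and Zfp984 50.2%, most with Gm13212 (46.9%, 41 counts in all). Zfp932 shared 34.9% of its words with Gm15446 alone, and Zfp874a 7.31% with Zfp874b. Zfp992 shared 43.0%, and the members of the chromosome 2 cluster ran from 23.3 to 51.1%. Among these Zfp931 shared 8.96% with Gm14399, which was itself lower in NOD, at -4.57 (SE 0.41, adjusted p = 3.24e-08). Whether reads passed between Zfp931 and Gm14399 was not tested. By contrast Zfp951 shared 1.63%, Zfp945 0.588%, Zfp950 0.852% and Zfp871 0.261%. Values of Zfp991, Zfp992, Zfp984, Zfp970, Zfp971, Zfp931 and Zfp932 are therefore uncertain as to the gene the reads came from. So are those of Zfp960, which shared 81.4% with Zfp97, of Zfp955a, which shared 51.8% with Zfp955b, and of Zfp935, of which 99.2% lies in the overlapping Gm49359.

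**Figure D4:**
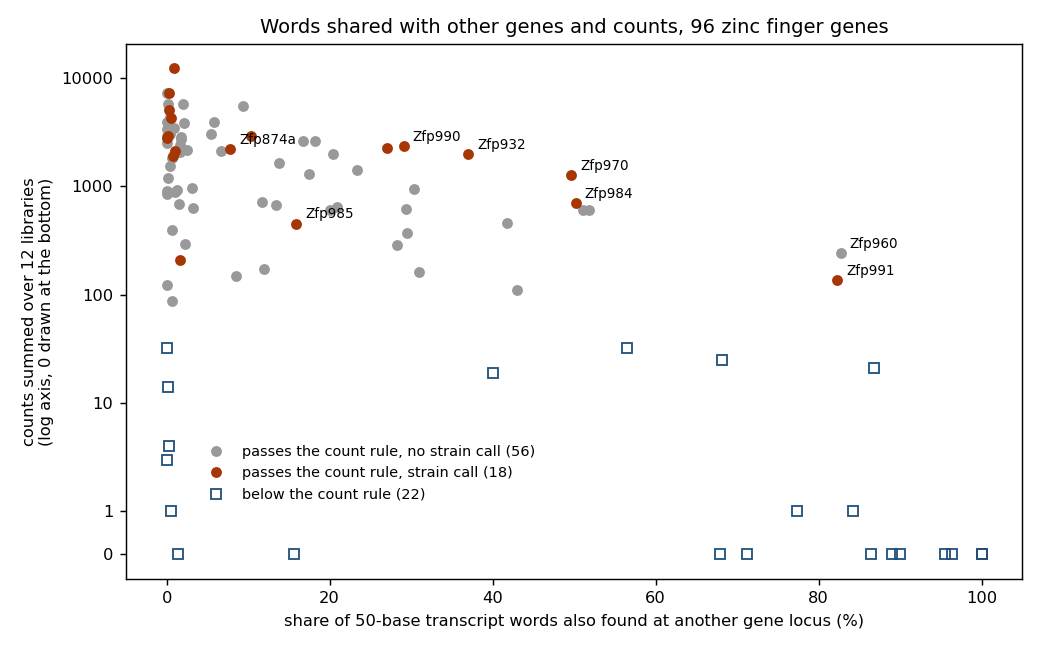
Share of 50-base transcript words also found at another gene locus (horizontal, %) and counts summed over the 12 libraries (vertical, log axis with 0 drawn at the bottom) for the 96 genes Zfp800 to Zfp999. The 22 genes below the count rule (squares) have a median share of 69.7%, and the 18 members with a strain call (red) run from near 0 to 82.2%.

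The genes that failed the count rule shared more. Over those 22 the median share was 69.7%, with 14 at 50% or more. The 11 genes with 0 counts in all 12 libraries had a median of 89.0% (range 1.39 to 100%), with 9 at 50% or more, and 5 of them lie on chromosome 2 and 4 on chromosome 4. The remaining 11 had a median of 40.0%. The smallest third-highest count inside the rule was 10, in Zfp811, and the next were 15, in Zfp992, Zfp977 and Zfp804b. The largest outside was 5, in Zfp981, Zfp972 and Zfp988. Whether these genes are silent or their reads were not counted was not tested.

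Across the members, the share of words and the absolute log2 strain difference had a low correlation (Spearman rho 0.22, Pearson r 0.24, n = 74 genes, which share libraries and, in clusters, sequence). The median share was 4.71% in the 18 called members and 2.80% in the 56 others, and 8 of 18 and 21 of 56 had a share of 10% or more. Reads of both backgrounds were aligned to GRCm38, an assembly of the strain C57BL/6J, per the submitters' processing notes, and how often NOD reads failed to align was not tested.

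Of the 278 other Zfp genes tested, 72 passed in the averaged comparison (25.9%, 37 higher and 35 lower), against 18 of 74 members. In the transgenic comparison 22 of 278 passed (7.91%) against 11 of 74, and without the transgene 54 (19.4%) against 18. No test of these differences was made.

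The cofactors through which KRAB zinc finger proteins act were taken from a fixed list, of which 28 genes were in the table. In the averaged strain comparison 10 of 28 passed (35.7%), 3 higher and 7 lower, with a median log2 difference of -0.07, against 33.3% and 0.01 over all genes. Trim28 had 104.2 ± 3.18 CPM in the B10 mice, 90.3 ± 8.87 in the B10_insHEL mice, 117 ± 8.40 in the NOD mice and 101.4 ± 4.43 in the NOD_insHEL mice (SD, n = 3). It did not pass, at 0.17 (SE 0.07, adjusted p = 0.0761). Setdb1 had 56.8 ± 4.68 CPM in the B10 mice, 45.5 ± 5.50 in the B10_insHEL mice, 37.1 ± 5.03 in the NOD mice and 38.5 ± 1.66 in the NOD_insHEL mice (SD, n = 3). It was lower by -0.43 (SE 0.09, adjusted p = 8.80e-04), but at -0.25 (adjusted p = 0.232) in the transgenic comparison alone. The histone deacetylase Hdac1 was the one gene of the list called there, at -1.17 (adjusted p = 8.35e-04), and was lower by -1.09 on average. The others called were Cbx3, Atf7ip, Atrx, Pphln1 and Rbbp4, lower, and Uhrf1, Suv39h1 and Ehmt2, higher.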

How the data were processed

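Polyadenylated RNA of islets from 12 mice was sequenced from stranded libraries, per the labels' protocols. The authors deposited 1 table of raw read counts per Ensembl gene. The submitters' processing notes name cutadapt, TopHat2 2.0.8b, HTSeq and DESeq with build GRCm38. Which annotation release, strand setting and rule for multiply mapped reads were used is not given in the sources used here. Symbols came from the reference tables for 36639 of 38561 rows (95.0%), which hold 99.8% of the counts.

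Counts were fitted with edgeR 4.0.16 in R 4.3.3 (filterByExpr, TMM, robust quasi-likelihood F-test, 4 group means over all 12 libraries), giving 6 comparisons, each with Benjamini-Hochberg adjustment across all 15352 genes in the fit. All 74 members passed the filter. Fits were tested on simulated data. CPM values are TMM-scaled. A limit of 3 counts corresponds to 0.142 to 1.36 CPM by library. Alternatives were DESeq2 1.42.0, its size factors, no filter, the replicate block, each library left out, only the groups compared, an acinar covariate and thinning to the shallowest total. No pair of libraries within a group agreed within sampling noise.

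Words were compared between transcripts only, since no genome sequence was used here. Intervals cover counting error only.

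Members and lists were chosen with earlier results of these data known. Genes were named by rule: up to 10 called members on each side whose 6 NOD and 6 B10 libraries did not overlap, members called for the transgene or interaction, members of the 4 largest clusters, Zfp800, Zfp804a, Zfp809, Zfp819, Zfp827, Zfp830 and Zfp932, and Trim28 and Setdb1. Other names were added after values were seen.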

Additional observations from a re-analysis of the deposited data

How the results depend on the processing

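Each count of called members was recomputed under every alternative. Thinning all libraries to the shallowest total, which left 62 members tested, gave 4 members in the averaged strain comparison, 2 in the transgenic one and 3 without the transgene, while the share of all genes called fell to 8.42%, 2.03% and 5.4%. Zfp990, Zfp985, Zfp970 and Zfp874a kept their averaged call. With the acinar covariate 5 members passed without the transgene and 12 in the averaged comparison, where 9.22% and 16.2% of all genes did. Of the averaged calls lost, Zfp821 (0.51) and Zfp941 (0.54) kept about their difference, while Zfp800 (-0.19), Zfp871 (-0.37), Zfp951 (-1.22) and Zfp956 (0.28) were smaller. The covariate largely follows the groups, so these values do not separate acinar RNA from strain. Without the low-count filter, 1 member passed for insHEL in B10 (Zfp871) and 1 in NOD (Zfp941), where 6.41% and 6.32% of all genes did. Leaving out single libraries gave 16 to 20 members in the averaged comparison, 9 to 12 in the transgenic one, 10 to 19 without the transgene, 0 to 2 for insHEL in B10, 0 to 2 for insHEL in NOD and 0 to 1 for the interaction. The shares of all genes called were 27.6 to 33.4%, 8.57 to 12.6% and 18.4 to 31.3% in the strain comparisons. For insHEL in B10, insHEL in NOD and the interaction they were 2.76 to 10.1%, 0.682 to 9.8% and 0.0128 to 1.04%. DESeq2 called 18, 12 and 17 members in the 3 strain comparisons, where 33.2%, 13.6% and 28.5% of all genes were called. Fits of only the groups compared called 9 and 20 in the latter 2, where 8.3% and 35.2% of all genes were called. Counting only members without a letter after the number, an alternative chosen after seeing the data, gave 17, 9 and 17. None of the 18 called averaged differences changed sign under any alternative run, while 25 of the 56 others did, the largest of them 0.31 (Zfp820). The alternatives use the same libraries and the 18 were called for lying far from 0 against their SE. The contrast thus follows from how they were chosen. With words of 36 bases the median share at other loci was 6.24%, and with 100 bases 0.0672%. Joining gaps of 0.5 Mb gave 7 clusters, with no chromosome 2 cluster and Zfp990 and Zfp992 outside that on chromosome 4, and 2 Mb gave 8.

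With the replicate number as a block, 18, 11 and 17 members passed in the 3 strain comparisons, and 0 in each of the others. Over all genes the shares called in the strain comparisons were then 32.7%, 12.1% and 27.8%. They were 6.72% for insHEL in B10, 6.26% for insHEL in NOD and 0.0521% for the interaction. Same-numbered libraries correlated at -0.095 to 0.080 in their deviations, under the 0.1 set for pairing, so the numbers were not taken to pair the mice.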
